A study of Homo sapiens with 9 samples.

Results

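IL11 and LIF are secreted cytokines of the interleukin-6 family. Probe sets were taken by gene symbol, which gave 2 of 53617 probe sets, 1 for IL11 and 1 for LIF; 16098 probe sets carried 1 gene symbol. The named probe sets stand for 14884 genes. They were measured on 9 Affymetrix arrays in EA.hy926, an established human line made by fusing umbilical vein endothelial cells with A549 lung carcinoma cells. Cells were left unexposed (control) or received silver nanoparticles of 5 nm or of 100 nm for 6 h, with 3 arrays per group numbered 1 to 3. Both particles were applied near their LD50, and no mass dose is given for either. The groups may therefore differ in dose as well as in particle size, and the 2 cannot be told apart. The series title names interleukin-11, and the comparisons ask how IL11 and its relative LIF differed between the groups. The labels do not state whether the 3 arrays of a group were separate cultures, so each p-value weighs a difference only against the spread of these arrays, which may be technical.

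IL11 and LIF signal through the same transducing receptor chain, gp130, encoded by IL6ST. IL11 first binds its own receptor, IL11RA, whereas LIF brings gp130 together with LIFR. The complexes activate Janus kinases and the transcription factor STAT3, and SOCS3, itself a STAT3 target, binds gp130 and damps the signal. IL11 is made by stromal, epithelial and endothelial cells under stress, and LIF is best known for keeping mouse stem cells undifferentiated and for its part in embryo implantation.

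Only the IL11 promoter is shown, since the promoter set used here held no LIF entry, so LIF was not searched. AP-1 subunits, which make up stress-responsive factors, are among the lists described below. Their binding to the capitalised letters was not measured. The 250 bases before the IL11 start site lie on the minus strand at chr19:55370464-55370713 (GRCh38.p14, RefSeq), and capitals mark an AP-1 match, TGANTCA, at bases -96 to -90 from the start site.
IL11 promoter: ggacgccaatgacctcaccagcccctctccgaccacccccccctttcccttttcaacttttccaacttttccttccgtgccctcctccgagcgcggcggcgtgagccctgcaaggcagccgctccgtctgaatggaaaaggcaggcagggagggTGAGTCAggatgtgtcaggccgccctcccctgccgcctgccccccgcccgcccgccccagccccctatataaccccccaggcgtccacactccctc
The window was searched on both strands for 6 motifs. An AP-1 match was found in 6.57% of 35116 RefSeq promoters of the same length. The window also held 4 GC boxes, GGGCGG, all on the other strand, at bases -77 to -72, -53 to -48, -49 to -44 and -45 to -40, the last 3 overlapping by 2 bases each; 42.6% of promoters held at least 1. No match was found for the cyclic AMP element TGACGTCA (1.65% of promoters), the STAT element TTCNNNGAA (6.57%), the antioxidant element TGACNNNGC (10.9%) or the heat shock element GAANNTTC (5.78%). A match is a description of the letters and not a measured binding site.

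Values are log2 intensities. The test covered the 12155 genes with a value of 5, the floor, or more on 3 or more arrays. Array medians were 5.15 to 5.64. Of 13 endothelial markers 10 had a probe set and 9 of these had a control mean of at least 5, among them PECAM1 (9.95), ENG (12.40) and VWF (5.98); EMCN, at 3.25, was the exception. Of 8 epithelial markers with a probe set, 7 reached 5, led by KRT18 (10.85). The fibroblast markers DCN (2.79) and LUM (3.80) did not, and of 2 leukocyte markers LYZ (7.02) did and CD14 (4.60) did not. The mean over the endothelial markers was 8.62 to 9.03 on control arrays, 8.41 to 8.91 on 5 nm arrays and 8.62 to 9.03 on 100 nm arrays. For epithelial markers these ranges were 6.67 to 7.38, 6.57 to 7.27 and 6.62 to 7.36. The values carry the pattern of arrays normalised in sets of 1 replicate number, so differences were also taken within each number.

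IL11 rose with 5 nm particles. Its log2 intensity was 6.89, 6.92 and 7.13 on control arrays 1, 2 and 3 and 10.02, 11.10 and 9.44 on the 5 nm arrays of the same numbers. Every 5 nm array lay above every control array, with a gap of 2.31 between the lowest of the one and the highest of the other. The means were 6.98 ± 0.13 and 10.19 ± 0.84 (SD, n = 3 each), so the 5 nm arrays were also the more scattered. The log2 difference was 3.21 (95% interval 2.43 to 3.99), a 9.24-fold rise (5.37 to 15.9), with adjusted p = 0.00555 in limma. In this comparison 0.0740% of tested genes were called higher and 0% lower. The difference was 3.13, 4.18 and 2.31 in replicates 1, 2 and 3, or 8.77-, 18.1- and 4.97-fold. An array reads RNA pooled from many cells, so more IL11 RNA per cell and more cells making it cannot be told apart.

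Both cytokines were higher in all 3 numbers, as were 8.03% of tested genes. The IL11 call depended on how the replicate number was handled. With the number as a block the interval was 2.13 to 4.29 and IL11 missed the threshold, with adjusted p = 0.0712 in limma, while the share of genes called higher was 0.296% and lower 0.354%. The block combined with median centring or with quantile normalisation over all arrays, combinations chosen after the values were seen, gave adjusted p = 0.0376 and 0.02 in limma. Median centring without the block gave 0.07. Without 1 array at a time and without the block, the adjusted p in limma ran from 0.00398 to 0.0411, all past the threshold. With the block, 2 of these 9 fits passed and the adjusted p in limma reached 0.338. The blocked fit of the 5 nm and control arrays alone gave 0.548. The exact two-sided permutation test gave p = 0.10, the smallest that 3 arrays against 3 allow.

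LIF was higher on every 5 nm array than on any control array but did not pass the test. Its log2 intensity was 5.38, 4.78 and 5.41 on control arrays 1, 2 and 3 and 7.57, 7.17 and 6.20 on the 5 nm arrays. The lowest 5 nm array, replicate 3, lay 0.79 above the highest control array. The means were 5.19 ± 0.35 and 6.98 ± 0.70 (SD, n = 3 each). The control mean is close to the floor of 5, and control array 2 lies under it, where a dim probe set can understate a difference, so its size is uncertain. The log2 difference was 1.79 (95% interval 1.03 to 2.54), or 3.45-fold (2.04 to 5.84), with adjusted p = 0.227 in limma, and 0.142 with the block. The exact two-sided permutation test gave p = 0.10, again the smallest possible. Groups that do not overlap with the 5 nm arrays higher were seen for both cytokines and for 1.41% of tested genes.

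The LIF call turned on the 5 nm array of replicate 3. Against the control array with the same number, LIF differed by 2.18, 2.39 and 0.79 in replicates 1, 2 and 3, or 4.55-, 5.23- and 1.73-fold. Without the 5 nm array of replicate 3 the difference was 2.18 and passed, with adjusted p = 0.0293 in limma, and 0.0144 with the block. Leaving out any other single array gave no LIF call in limma, with or without the block.

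**Figure D1:**
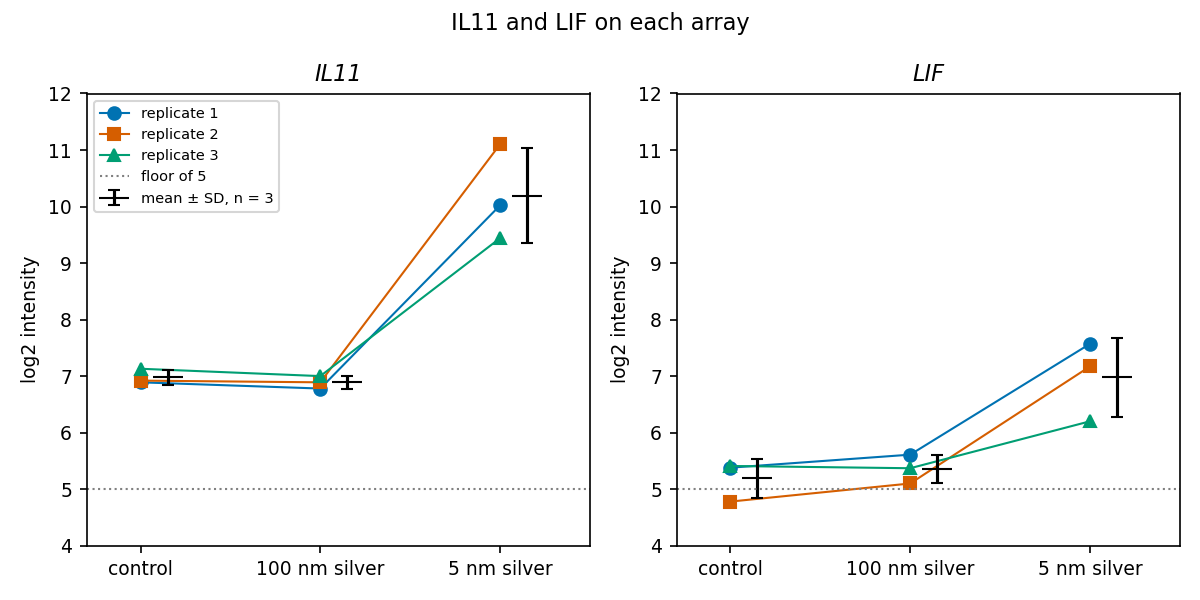
Log2 intensity of IL11 (left) and LIF (right) on each array by group; coloured lines join arrays of 1 replicate number, black bars give the mean ± SD (n = 3) and the dotted line the floor of 5. The 5 nm arrays of IL11 sit between 9.44 and 11.10 and those of LIF between 6.20 and 7.57, above all control and 100 nm arrays of the same gene.

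Neither cytokine differed beyond the spread between arrays after 100 nm particles. IL11 was 6.78, 6.89 and 7.0 on 100 nm arrays 1, 2 and 3, overlapping the controls, with a mean of 6.89 ± 0.11 (SD, n = 3). Its log2 difference from control was -0.09 (95% interval -0.87 to 0.69, with adjusted p = 1 in limma with or without the block). The interval leaves room for a level from 0.546-fold to 1.62-fold that of control. Within numbers IL11 was slightly lower in all 3 (-0.11, -0.03 and -0.13), as were 1.41% of tested genes. LIF was 5.61, 5.10 and 5.37 on the 100 nm arrays, a mean of 5.36 ± 0.25 (SD, n = 3). It differed by 0.17 (-0.59 to 0.93; adjusted p = 1 in limma), and by 0.23, 0.32 and -0.04 within numbers. Groups that do not overlap with control were seen for 0.00823% of tested genes with the 100 nm arrays higher and for 0.0247% with them lower, and for neither cytokine; 1.25% were higher in all 3 numbers, LIF not among them. In this comparison 0% of genes were called in either direction, and 0 passed an unadjusted p of 0.05 in limma without the block and 33 with it.

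Set directly against each other, the particles differed for IL11. The order of the IL11 levels was 5 nm above control above 100 nm, and the last pair did not differ beyond their spread. IL11 was higher with 5 nm than with 100 nm particles by 3.30 (95% interval 2.52 to 4.08), or 9.84-fold (5.72 to 16.9), with adjusted p = 0.00514 in limma and 0.0685 with the block; 0.0658% of genes were called higher and 0% lower without the block, and 0.288% and 0.329% with it. Within numbers the difference was 3.24, 4.21 and 2.44, so IL11 was at least doubled in all 3, as were 0.214% of tested genes. The order for LIF was 5 nm above 100 nm above control. LIF differed by 1.62 (0.86 to 2.38), or 3.07-fold, without passing (adjusted p = 0.351 in limma, 0.155 with the block), and the within-number differences were 1.96, 2.07 and 0.83. Without the 5 nm array of replicate 3 the LIF difference was 2.01 and passed (adjusted p = 0.0427 in limma). Groups that do not overlap were again seen for both cytokines and for 1.37% of tested genes, and a higher value in all 3 numbers for both and for 8.04%. This comparison shares its 5 nm arrays with the first and is not independent of it.

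Both cytokines had a smaller difference in replicate 3 than in the other replicates. Ranked by the 5 nm difference among the 12155 tested genes, IL11 was 4th, 3rd and 6th in replicates 1, 2 and 3, so its place hardly moved although its difference did. LIF was 11th, 24th and 73rd. The number of genes at least doubled was 63, 201 and 43 in the same order, and the number at least halved 1, 143 and 2. The array pair with the largest IL11 difference is therefore also the one with the most doubled genes; what that contributes to the IL11 value was not tested. In all 3 numbers 0.222% of tested genes were at least doubled, IL11 among them; LIF fell short in replicate 3.

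Of the receptors, IL6ST and IL11RA were not analysed here, having no probe set under those symbols. LIFR, the LIF receptor chain, had one and the same value on the 3 arrays of each number, 6.31, 6.01 and 5.62 in numbers 1, 2 and 3. Its difference was therefore exactly 0 in every comparison. The 95% interval without the block, -0.62 to 0.62, takes in the spread between numbers, and with the block it was -0.00 to 0.00. Such exact zeros in all 3 numbers occurred for 19.0% of tested genes with 5 nm particles and 30.3% with 100 nm particles, and for 17.4% between the particles, so a small true difference may be hidden there. OSMR, the oncostatin M receptor chain, was 9.62, 9.10 and 9.02 on controls and 9.44, 9.10 and 9.02 on 5 nm arrays. The difference was -0.06 (-0.60 to 0.48, with adjusted p = 1 in limma), and the interval with the block was -0.17 to 0.05. With 100 nm particles OSMR was 9.54, 9.10 and 9.02. The arrays of a number thus held nearly or exactly the same receptor values in all groups.

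SOCS3, the feedback inhibitor at gp130, was 8.80, 8.05 and 8.10 on control arrays, 9.0, 8.20 and 8.03 on 5 nm arrays and 8.90, 8.05 and 8.17 on 100 nm arrays. Its 3 groups overlapped. The differences were 0.09 (95% interval -0.65 to 0.84) with 5 nm and 0.06 (-0.69 to 0.80) with 100 nm particles, both with adjusted p = 1 in limma, and with the block the first interval narrowed to -0.09 to 0.27. A second, dimmer SOCS3 probe set was 5.58, 4.19 and 5.57 on controls and 5.45, 4.19 and 4.92 on 5 nm arrays, so the 2 probe sets did not share a direction. None of the 3 context genes with a probe set passed in any comparison in limma, with or without the block.

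The wider pathway was read from 6 lists holding 92 genes, of which 56 were tested, 29 had no named probe set and 7 stayed under the floor. Besides IL11 and LIF, 0 of 54 tested list genes passed for 5 nm particles in limma and 5 had an unadjusted p under 0.05 (ATF3, JUNB, MAFG, SOCS1 and VEGFA); with the block 1 passed and 10 were under 0.05. Over all 12155 tested genes an unadjusted p under 0.05 was found for 201 in limma and for 1739 with the block. The blocked count of list genes is thus close to the share over all genes. Without the block the list count lies above that share, and no set test was run. The lists were chosen with earlier results of these data known, so their counts cannot show an excess. The median difference over all tested genes was 0. For 100 nm particles 0 of the 56 passed and 0 had an unadjusted p under 0.05.

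Among ligands, 5 of 11 were tested, and IL11 was the 1 called higher; the list median was 0.061. CTF1, cardiotrophin 1, differed by 0.06, IL27 by 0.00 and EBI3, the partner chain of interleukin-27, by -0.18 (0.00, -0.21 and -0.32 in replicates 1, 2 and 3). OSM and IL31 stayed under the floor, and IL6, CNTF and CLCF1 were among those with no named probe set. The 5 tested receptors ran from -0.06 to 0.05 with a median of 0.000 and 0 calls; CNTFR and IL6R each differed by 0.05. All 5 receptors therefore had smaller differences than either cytokine.

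Of 10 tested kinases, STATs and adaptors 0 passed, 2 were positive and 7 negative, with a median of -0.050. JAK1, the main kinase at gp130, was 11.10, 10.57 and 10.40 on controls and 11.32, 10.87 and 10.63 on 5 nm arrays. The groups overlapped, but the difference within numbers was even, at 0.23, 0.29 and 0.23. JAK1 differed by 0.25 (adjusted p = 1 in limma) and passed with the block (adjusted p = 0.0443). STAT3 differed by 0.11 and GAB1, an adaptor of receptor signalling, by -0.18, a value that came from replicate 2 alone (0.00, -0.53 and 0.00).

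Of 8 tested brakes 0 passed and 4 were positive, with a median of 0.003. SOCS1, a kinase inhibitor, stood apart from the rest at 0.71 (95% interval 0.03 to 1.38; adjusted p = 1 in limma, 0.212 with the block), and at 0.44, 1.20 and 0.49 within numbers. The other 7 brakes, SOCS3 and SOCS7 (-0.08) included, lay between -0.08 and 0.09.

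Of 18 tested STAT3 targets 0 passed, 9 were positive and 7 negative, with a median of 0.034. JUNB, an AP-1 subunit that also sits in the next list, differed by 1.16 (adjusted p = 0.616 in limma; 1.33, 1.82 and 0.33 within numbers). VEGFA, the vascular growth factor, differed by 1.10 (adjusted p = 0.736) and BCL6, a transcriptional repressor, by 0.64 (adjusted p = 1). The most negative value of the list was -0.33.

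AP-1 subunits had the highest median of the 6 lists, 0.235. Of 12 tested members 0 passed in limma with or without the block. Of these members 9 were positive, 5 of them in all 3 numbers, and 2 were negative. Over all tested genes 8.03% were positive in all 3. The list was chosen with earlier results of these data known, so these counts are a description only. ATF3, a stress-induced partner of JUN proteins, was 7.06, 7.12 and 8.15 on controls and 8.50, 8.94 and 8.75 on 5 nm arrays. The ATF3 groups did not overlap, and nor did those of JUNB, MAFF and MAFG. This was seen for 1.41% of tested genes with the 5 nm arrays higher. ATF3 differed by 1.28 (0.47 to 2.09, with adjusted p = 0.984 in limma and 0.159 with the block). MAFG, a small MAF protein, differed by 0.85 (adjusted p = 1). The FOS and JUN members were uneven. JUNB (1.16) and FOSB (0.75) differed most, and FOS (0.12), JUN (0.17), JUND (0.30), FOSL1 (0.03) and FOSL2 (-0.07) differed less. With 100 nm particles the AP-1 median was 0.000.

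**Figure D2:**
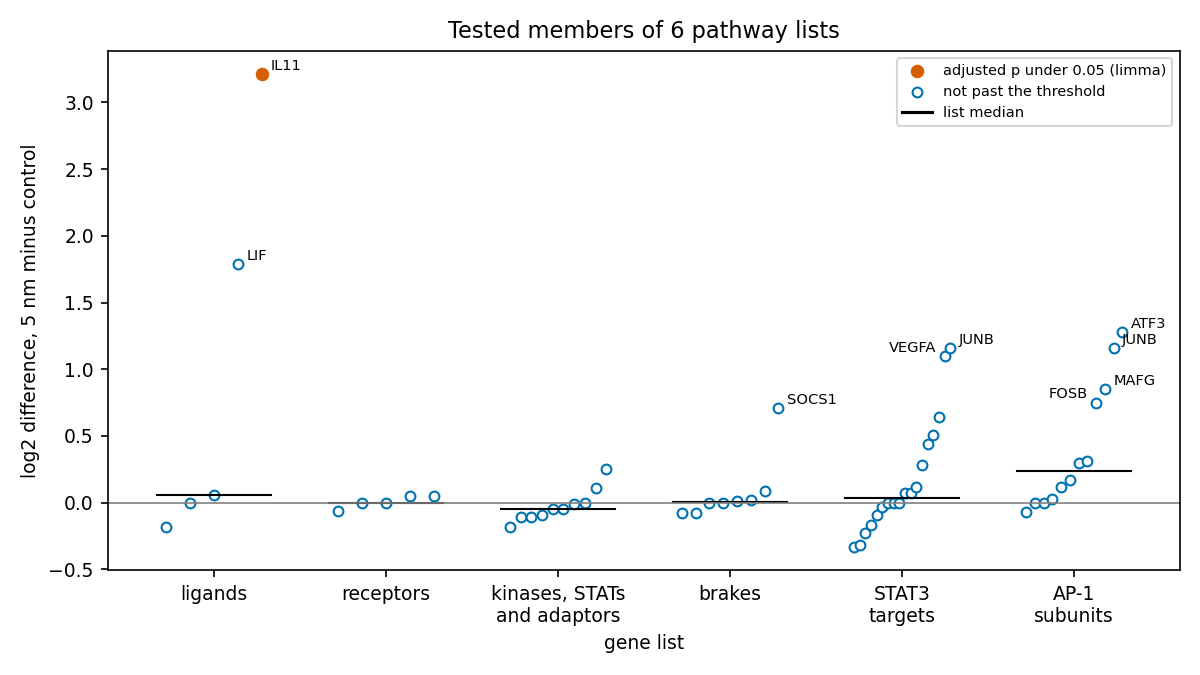
Log2 difference between 5 nm and control arrays (limma, vertical axis) for each tested member of the 6 pathway lists; filled points passed an adjusted p of 0.05, open points did not, and black lines are list medians. IL11 at 3.21 and LIF at 1.79 lie above all other points, the highest of which is ATF3 at 1.28.

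Genes with a pattern like that of IL11 were ranked by the root mean square distance over 6 values, the 5 nm and the 100 nm difference within each of the 3 numbers. The 5 closest of the tested genes were DDIT3, the stress factor CHOP (0.32), MMP10, a matrix metalloproteinase (0.38), HMOX1, the inducible heme oxygenase (0.44), CXCL8, a neutrophil chemokine (0.52), and PTGS2, the inducible cyclooxygenase (0.52). The ranking used differences from these same arrays, so large 5 nm differences and a course like that of IL11 are built into the choice. DDIT3 followed IL11 through the numbers, at 2.63, 4.09 and 1.76 against 3.13, 4.18 and 2.31. MMP10, HMOX1 and CXCL8 passed the test for 5 nm particles, with adjusted p = 0.00421, 0.000704 and 0.00278 in limma, and DDIT3 (0.266) and PTGS2 (0.36) did not. LIF ranked 16th, at 1.06.

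The 5 genes closest to LIF were SAT1, a polyamine-catabolising enzyme (0.26), HIVEP2, a zinc finger factor (0.27), KDM7A, a histone demethylase (0.33), SDF2L1, an endoplasmic reticulum protein (0.33), and MT1E, a metallothionein (0.34). SAT1 differed by 1.72, 2.21 and 0.71 in replicates 1, 2 and 3, against 2.18, 2.39 and 0.79 for LIF. None of the 5 passed for 5 nm particles; MT1E came nearest, with adjusted p = 0.0666 in limma. IL11 ranked 314th from LIF, since distance counts size as well as shape.

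**Figure D3:**
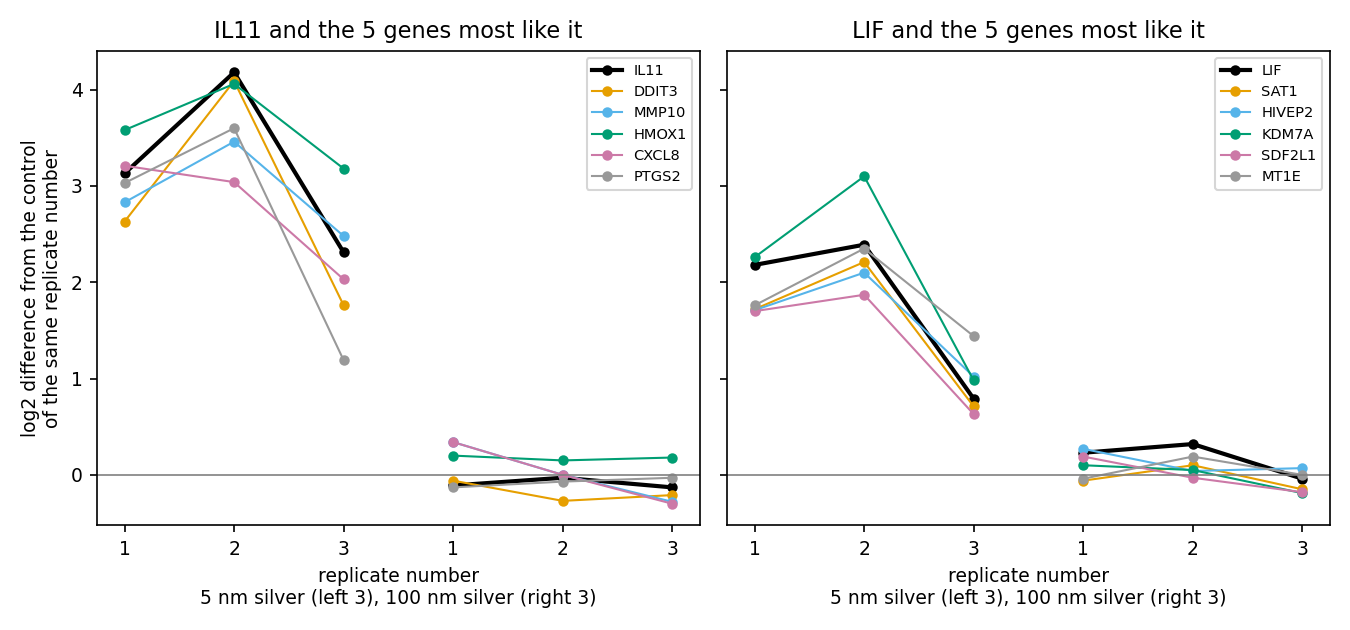
Log2 difference from the control array sharing the replicate number for IL11 (left, black) and LIF (right, black) and the 5 genes nearest to each; the left 3 points of a panel are 5 nm and the right 3 are 100 nm arrays. All 5 nm values of the IL11 panel lie at or above 1.19, and the 5 nm values of every gene in both panels are lowest in replicate 3, at 2.31 for IL11 and 0.79 for LIF.

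**Figure D4:**
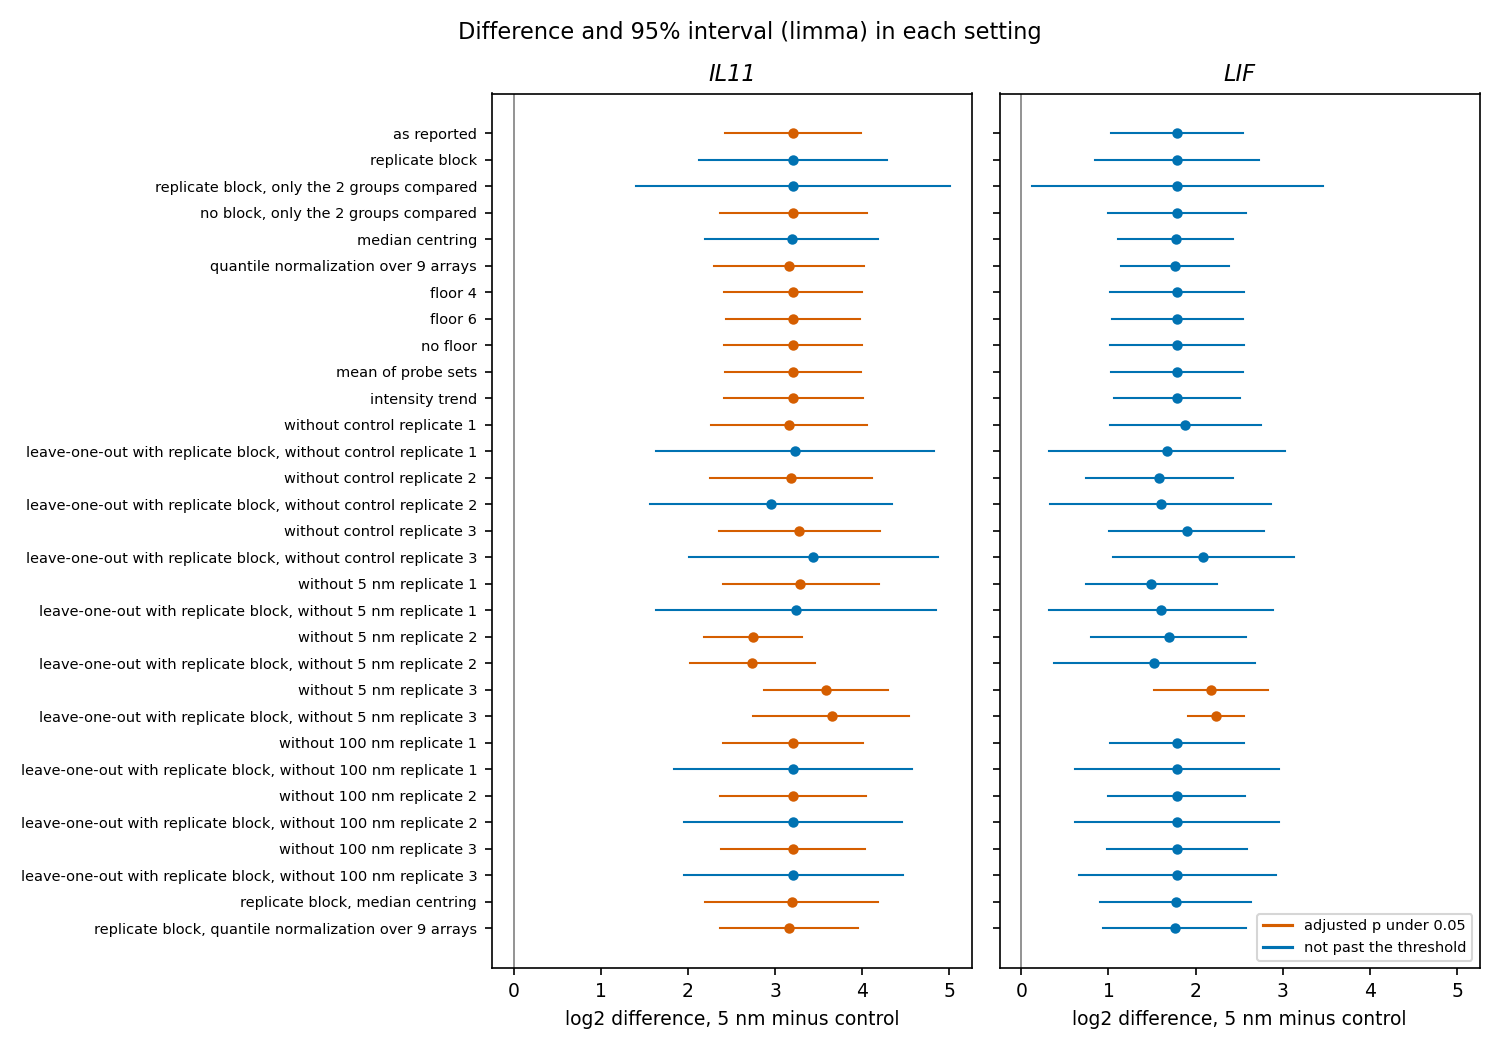
Log2 difference between 5 nm and control arrays with its 95% interval (limma) for IL11 (left) and LIF (right) as reported and in 30 alternative settings; orange marks an adjusted p under 0.05. IL11 stays between 2.74 and 3.65 and LIF between 1.49 and 2.23. Of the 30 alternatives 20 call IL11 and 2 call LIF, and the fit as reported calls IL11 but not LIF.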

How the data were processed

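The authors deposited RMA values on the log2 scale for 53617 probe sets. Per the submitters' processing notes, the software was Expression Console 1.3.1. They came from 300 ng of RNA per array, per the labels' protocols. Between arrays of 1 replicate number 46.9% to 57.6% of values were exactly equal, against at most 0.00373% otherwise, the pattern of arrays normalised 3 at a time; no source used here states this. Symbols came from the platform annotation, updated through the Entrez identifier (16098 of 16098 matched). The brightest probe set stood for a gene. limma 3.58.1 in R 4.3.3 (lmFit, eBayes) was fitted on all 9 arrays by group over 12155 genes, with Benjamini-Hochberg adjusted p under 0.05. A run on simulated data checked only that mean estimates returned the added differences. Those data held no exactly equal values, so that run does not check the calls made here. After subtraction of group means, arrays sharing a number correlated over all probe sets at r = 0.697 to 0.842 and others at r = -0.520 to -0.234. The subtraction itself pushes the second range below 0. Shared normalisation and paired cultures cannot be told apart here, so the correlations do not show that cultures were paired. Because values are shared within a number, blocked values are given beside results they change. Alternatives covered the block, scaling, floor, probe sets, prior variance and single arrays left out. The number of arrays limits the precision. Named were the members, the context genes, list members past the threshold or among the 3 largest of a list, and the 5 genes nearest to each member; other genes were chosen after their values were seen. The members and lists were chosen with earlier results of these data known.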

Additional observations from a re-analysis of the deposited data

How the results depend on the processing

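Depth is not recorded for arrays; the LIF controls, close to the floor of 5, limit its fold change. With the replicate block IL11 stayed at 3.21 against control and 3.30 against 100 nm particles but missed the threshold (adjusted p = 0.0712 and 0.0685 in limma), also when the blocked fit held 2 groups only (3.21 and 3.30; 0.548 and 0.549) and with median centring (3.19 and 3.28; 0.07 and 0.0702); why was not tested. The count of genes past the threshold, 9 against control and 8 against 100 nm, became 79 and 75 with the block, 0 and 0 with the block on 2 groups, 4 and 4 with median centring, 19 and 17 with quantile normalisation and 15 and 15 with a floor of 6. The count of pathway list genes called, 1, became 0 with the block on 2 groups and with median centring; with the block it was 1 again, JAK1 in place of IL11. Taking the mean of probe sets turned SOCS3 to -0.08, -0.02 and -0.06 (5 nm and 100 nm against control, 5 nm against 100 nm).

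Leaving out 1 array at a time, with and without the replicate block, gave 2.74 to 3.65 for IL11 and 1.49 to 2.23 for LIF (5 nm against control), -0.35 to 0.14 and -0.04 to 0.47 (100 nm against control), and 2.83 to 3.74 and 1.33 to 2.07 (5 nm against 100 nm). IL11 was called in all 9 fits without the block and in 2 of 9 with it, those without the 5 nm array of replicate 2 or 3, and LIF in the fits without the 5 nm array of replicate 3. In the same order of comparisons OSMR ran from -0.19 to 0.13, -0.19 to 0.16 and -0.16 to 0.13, and SOCS3 from -0.20 to 0.33, -0.21 to 0.30 and -0.26 to 0.30. Calls numbered 2 to 446, 0 to 1 and 6 to 449, and pathway calls 0 to 4. Without the block, leaving out the 5 nm array of replicate 3 gave 15 and 19 calls against control and 100 nm particles. With the block, leaving out that of replicate 1, 2 or 3 gave 131, 326 and 446 against control, and leaving out control array 3 gave 2. The sign of every 100 nm difference of IL11 and LIF is therefore not settled. No other call or direction of IL11 and LIF changed under the floors, the probe set mean, the intensity trend, the fit without the block on 2 groups or quantile normalisation. At the floor of 6 LIF was kept only through its 5 nm arrays, the group where it is high. That setting therefore gives no separate support for the LIF difference.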

Other observations

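AP-1 letters were counted among the genes with the largest response. The other motifs searched in IL11 were not counted there, so whether AP-1 stands out from them was not tested. Of the 27 genes at least doubled by 5 nm particles in all 3 replicate numbers, 21 had a RefSeq promoter to search, and 8 of these (38.1%) held TGANTCA in the 250 bases before the start: BAG3, CXCL8, DDIT3, HSPA6, IL11, IL1RL1, MMP10 and STATH. Without IL11 it was 7 of 20 (35%). Among all tested genes with a promoter the share was 6.56% (602 of 9178). Of the 5 genes nearest to IL11, 4 had a promoter and 3 of them held the match (CXCL8, DDIT3 and MMP10), all 3 already among the 8. Of the 4 with a promoter nearest to LIF, 0 did, and LIF itself had no promoter to search. The genes were selected by their response in these same arrays, the motif was chosen after the values were seen, and no test was run, so the shares are a description of letters and not of binding.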
